A study of Mus musculus with 48 samples.

Results

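The genes described here are the multidomain members of the mouse BCL2 family, 4 that keep cells alive (Bcl2, Bcl2l1, Bcl2l2 and Mcl1) and 3 that open the outer mitochondrial membrane (Bax, Bak1 and Bok). They are a list of names drawn up with earlier results of these data known, and all 7 were found among the 39017 Ensembl gene identifiers of the count tables and passed the filter on low counts in each of the 20 comparisons. The survival proteins bind the pore formers and hold them inactive, and BH3-only proteins such as those encoded by Bmf and Bcl2l11 (Bim) release or trigger them. When BAX or BAK assembles into pores, cytochrome c leaves the mitochondrion and the caspases downstream are activated. Beta cells and their tumours depend on this balance, and BCL-XL, the long product of Bcl2l1, has been studied in insulinomas of SV40 T-antigen mice.

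PolyA RNA was sequenced from both of the study's mouse lines of pancreatic neuroendocrine tumour, βTC3, an insulinoma line that makes insulin, and AJ5257-1 (AJ below), in 48 libraries that form 16 groups of 3. All cells carried the doxycycline (dox) inducible plasmid PB-33, which was empty in control cells (vector) or encoded ALK7-CA, the constitutively active activin receptor-like kinase 7, or, in AJ, ALK7 itself. In batch 1, each line was read as vector cells without dox, as vector cells given dox (2 µg/ml) for 2 or 24 h, and as ALK7-CA cells given that dose for 2 or 24 h. Batch 2 held vector cells with 0 h of dox in each line, with no ligand or with activin B at 50 ng/ml for 24 h, and AJ cells with the ALK7 plasmid after 24 h of dox, again with no ligand or with activin B. ALK7-CA cells at 0 h of dox, and ALK7 cells without dox, were not analysed here, so ALK7 cells differ from batch 2 vector cells in plasmid and in dox together. Cells were plated in triplicate in 6-well plates, and since nothing in the labels says that the 3 libraries of a group came from separate cultures, each p-value gauges no more than the spread of these samples, which may be technical.

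Total counts ran from 22149501 to 38848102 in the 30 libraries of batch 1 and from 17976628 to 25271203 in the 18 of batch 2. Summed islet endocrine markers stood at 6336 to 37000 CPM (reads of a gene scaled to the size of the library) per library, against 1.248 to 7.84 CPM for 4 fibroblast, 1.22 to 6.64 for 3 immune and 0.260 to 5.51 for 3 endothelial markers. No receptor plasmid came with a rise of Acvr1c, the gene of ALK7 (log2 -0.66 in βTC3 and -1.48 in AJ with ALK7-CA at 24 h, both lower, and 0.25 in ALK7 cells against vector, adjusted p = 0.16), and the labels are therefore not checked by it. Replicate 1 of AJ ALK7-CA cells at 24 h stood apart, because 14 genes of βTC3 that other AJ libraries nearly lack were read in it at a median of 5.54% of their βTC3 level, against at most 0.0701% in each of the other 26 AJ libraries. The 14 genes were chosen as low in AJ vector libraries, so the low values of those libraries follow from the choice. For the effect of ALK7-CA at 24 h in AJ, values with and without ALK7-CA replicate 1 are given below, while the correlations across group means and the list medians include it. In batch 1 the library numbered 3 deviated alike in every group, lowest of the 3 for Bcl2l1 and Bak1 and highest for Mcl1 and Bcl2l2 in 10 of 10 groups across both lines, although its depth, 26508147 to 33038060 counts, lay inside the range of the others.

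The 7 genes sit at separate places in the genome (GRCm38, the build named for these files), Bcl2 (ENSMUSG00000057329) at chr1:106538178-106714274 on the minus strand, Bcl2l1 (ENSMUSG00000007659) at chr2:152780668-152831728 minus, Bcl2l2 (ENSMUSG00000089682) at chr14:54883377-54888234 plus and Mcl1 (ENSMUSG00000038612) at chr3:95658788-95663176 plus. Bax (ENSMUSG00000003873) lies at chr7:45461697-45466898 minus, Bak1 (ENSMUSG00000057789) at chr17:27019810-27029009 minus and Bok (ENSMUSG00000026278) at chr1:93685660-93695764 plus. Exons of Bak1 overlap those of Ggnbp1 on the other strand, and reads given to Ggnbp1 came to a median of 43.4% of the Bak1 count in AJ and 15.55% in βTC3. Since the strand setting of the counting is not given in the sources used here, Bak1 counts are uncertain. Bcl2l2 shares 594 exon bases with Gm20521 on the same strand, and Gm20521 was given 0 reads in every library. Bax shares 192 with Gm45808 on the same strand, which is not in the count tables. Bcl2 shares 558 with D630008O14Rik on the other strand, which had at most 1 read. How reads in shared bases were counted is not given either. Counts per gene do not separate the splice forms of Bcl2l1 and Mcl1, some of which are known to act against survival.

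ALK7 signals through SMAD2 and SMAD3, whose complexes bind DNA at the SMAD box CAGAC and at GC-rich motifs such as GGCGC, so start regions of 3 of the genes, Bcl2, Bcl2l1 and Bok, are shown with both motifs as examples of a window rich in the second, of windows with and without the first, and of one with both. RefSeq start regions (GRCm38.p6, 250 bases before to 50 after the start) matched all 7 genes in 9 windows, since Bcl2l1 has 3. The windows of Bcl2 (chr1:106714241-106714540, minus), Bcl2l1 at its annotated start (chr2:152831679-152831978, minus) and at a start within the gene (chr2:152828440-152828739, minus) and Bok (chr1:93685325-93685624, plus) follow, 5′ to 3′, with capitals marking CAGAC or GGCGC on either strand. A GGCGCC run holds overlapping matches to GGCGC on both strands.

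Bcl2: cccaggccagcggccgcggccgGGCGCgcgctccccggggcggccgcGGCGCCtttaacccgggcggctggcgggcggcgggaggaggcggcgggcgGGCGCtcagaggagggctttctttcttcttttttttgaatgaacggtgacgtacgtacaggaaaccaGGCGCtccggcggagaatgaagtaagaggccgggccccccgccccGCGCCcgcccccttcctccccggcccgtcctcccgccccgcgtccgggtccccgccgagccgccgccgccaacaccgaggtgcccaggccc
Bcl2l1, annotated start: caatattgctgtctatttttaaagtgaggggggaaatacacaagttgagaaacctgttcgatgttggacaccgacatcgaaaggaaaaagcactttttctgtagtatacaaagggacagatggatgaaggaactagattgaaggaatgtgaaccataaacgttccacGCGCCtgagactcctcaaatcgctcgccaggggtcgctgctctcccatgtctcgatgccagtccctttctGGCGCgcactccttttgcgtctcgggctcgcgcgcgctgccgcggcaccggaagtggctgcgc
Bcl2l1, internal start: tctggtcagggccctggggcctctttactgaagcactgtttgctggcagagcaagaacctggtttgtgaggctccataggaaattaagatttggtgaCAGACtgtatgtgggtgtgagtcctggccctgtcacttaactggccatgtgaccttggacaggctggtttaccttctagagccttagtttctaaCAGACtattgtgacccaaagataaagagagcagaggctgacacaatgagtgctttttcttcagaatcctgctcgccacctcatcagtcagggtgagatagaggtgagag
Bok: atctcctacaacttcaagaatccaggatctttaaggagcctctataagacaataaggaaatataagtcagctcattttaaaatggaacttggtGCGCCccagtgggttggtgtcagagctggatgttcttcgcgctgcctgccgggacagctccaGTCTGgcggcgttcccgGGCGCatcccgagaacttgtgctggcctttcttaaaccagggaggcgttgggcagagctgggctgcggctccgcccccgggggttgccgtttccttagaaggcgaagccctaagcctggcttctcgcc

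The Bcl2 window was 76.0% G or C, against a median of 52.7% over 32851 start regions, and held 6 matches to GGCGC and none to CAGAC. The internal Bcl2l1 window held CAGAC at 153 and 59 bases before the start (positions -153 and -59), and the window at its annotated start held GGCGC at 2 places and no CAGAC. In Bok, CAGAC lay on the reverse strand at -95, with GGCGC at 2 places. Of all start regions of the same length, 49.6% held CAGAC and 36.9% GGCGC, so a match is common and these are descriptions of letters, not of binding. The other windows held no CAGAC in Mcl1, Bcl2l2, Bax and the third Bcl2l1 window, and 1 match in Bak1.

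In unstimulated vector cells the lines held the family in different proportions. Levels per kilobase (kb) of exon, which allow genes to be set side by side, put Bax first and Bcl2 last in both lines and both batches. In AJ batch 1 Bax stood at 59.1 ± 2.90 CPM per kb (SD, n = 3 here and below) and Mcl1 at 57.5 ± 2.39, and their libraries overlapped. Bok (29.4 ± 2.07), Bcl2l1 (14.5 ± 0.815), Bcl2l2 (11.96 ± 0.233), Bak1 (7.05 ± 0.637) and Bcl2 (4.75 ± 0.216) followed without overlap. In βTC3 batch 1 Bax stood at 72.1 ± 17.0 CPM per kb, Mcl1 at 26.2 ± 2.09 and Bcl2l2 at 15.7 ± 0.910, each apart from the next. Bak1 (10.6 ± 2.04) and Bcl2l1 (10.3 ± 0.891) overlapped there, with Bok (3.65 ± 0.158) and Bcl2 (0.137 ± 0.0139) below them. In batch 2 Bcl2l2 (13.7 ± 0.904) stood before Bcl2l1 (13.4 ± 0.818) in AJ with overlap, Bax was apart from Mcl1 there, and Bak1 was apart from Bcl2l1 in βTC3, with no other change of order. With the longest transcript as length, Bcl2l1 changed place with Bak1 in βTC3 in both batches, and in AJ batch 2 Bcl2l1 moved above Bok and Bcl2 above Bak1. Of the summed per-kb level of the 4 survival genes, Mcl1 made up 64.8 ± 1.26% in AJ and 50.1 ± 2.14% in βTC3 in batch 1, Bcl2 5.36 ± 0.146% and 0.263 ± 0.0359%, and Bcl2l2 13.5 ± 0.0515% and 30.1 ± 0.690%. Of the pore formers, Bok made up 30.8 ± 0.487% in AJ and 4.36 ± 0.917% in βTC3. The SD of these shares covers the spread of libraries only, and the shares depend on the length used. With the longest transcript, Bcl2l1 stood at 18.3 and Bcl2l2 at 18.4 CPM per kb in βTC3 batch 1, with Mcl1 unchanged at 26.2.

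**Figure D1:**
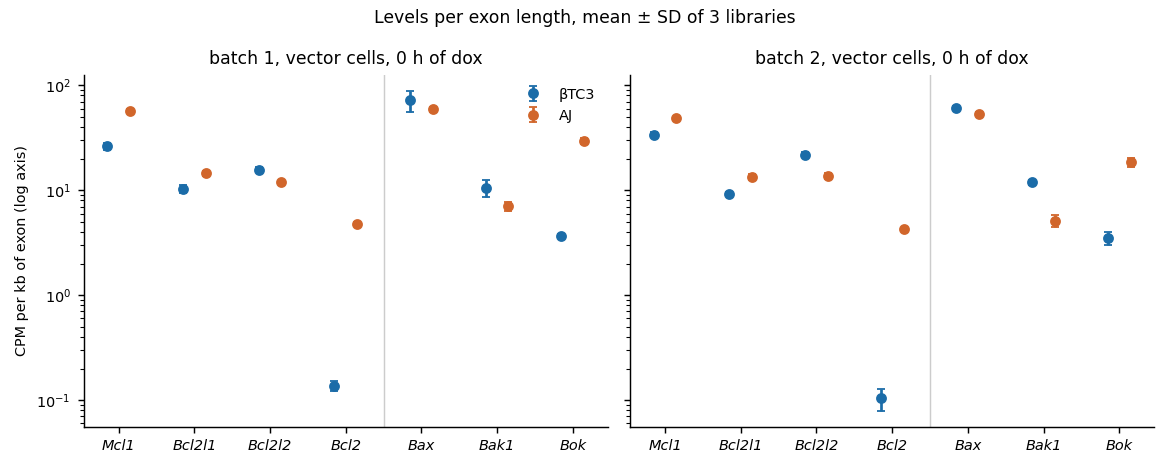
Levels of the 7 genes per kb of exon (log axis) in vector cells with 0 h of dox, for βTC3 (blue) and AJ (orange), batch 1 on the left and batch 2 on the right, with points at the mean and bars at the SD of 3 libraries. Bcl2 and Bok were far lower in βTC3 in both batches, and Bax was the highest pore former in each.

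Bcl2, the founding survival gene of the family, differed most between the lines. Its CPM in AJ vector cells at 0 h of dox were 44.0, 41.3 and 45.2 in batch 1 and 39.7, 37.5 and 38.9 in batch 2, against 1.34, 1.32 and 1.11 and then 1.21, 0.816 and 0.827 in βTC3. No library of either line came near the other, and over all groups the raw counts were 11 to 60 in the 21 βTC3 libraries and 486 to 1725 in the 27 AJ libraries. βTC3 was lower by 34.4-fold in batch 1 (log2 difference -5.10, SE 0.117, edgeR adjusted p = 6.85e-08) and by 41.4-fold in batch 2 (-5.37, SE 0.129, adjusted p = 6.48e-09). In bulk RNA, fewer cells with a transcript and less of it in each cell cannot be told apart. Of the 7 genes, 2 were higher and 4 lower in βTC3 in batch 1 and 3 higher and 4 lower in batch 2, where 72.1% (36.5% higher, 35.6% lower) and 76.1% (37.6% and 38.5%) of all tested genes passed, so passing is common here. The libraries of the lines did not overlap for 6 and 7 of the 7, against 75.5% and 78.2% of all genes.

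Bok, whose product can form pores without the usual BH3-only triggers, was the other large difference. It stood at 56.1, 56.5 and 49.7 CPM in AJ and 6.99, 6.75 and 6.41 in βTC3 in batch 1, a 7.99-fold difference (log2 -3.00, SE 0.096, adjusted p = 2.42e-07). In batch 2 the values were 35.6, 29.9 and 36.5 against 5.98, 5.82 and 7.44, a 5.49-fold difference (log2 -2.46, adjusted p = 4.01e-07). Both lines kept apart in every library, but AJ itself read Bok lower in batch 2 than in batch 1.

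Mcl1, which encodes a short-lived survival protein, was lower in βTC3 by 2.174-fold in batch 1 (89.7 ± 7.13 against 196 ± 8.18 CPM, adjusted p = 7.34e-06) and by 1.495-fold in batch 2 (115.5 ± 6.57 against 166 ± 3.40, adjusted p = 5.41e-06). Bcl2l1 was lower by 1.401-fold and 1.501-fold (adjusted p = 0.00179 and 1.66e-05). Bcl2l2, which encodes the survival protein BCL-W, was higher in βTC3 by 1.33-fold and 1.53-fold (adjusted p = 0.000979 and 2.14e-05). Bak1 was higher by 1.52-fold and 2.23-fold (adjusted p = 0.0102 and 9.67e-06). Bax did not pass in batch 1 (log2 difference 0.30, adjusted p = 0.147), where βTC3 replicate 3 read 83.2 CPM beside 124 and 134 in the other two, and without that library it passed (0.48, adjusted p = 0.00046). In batch 2 the Bax difference was 0.13 (adjusted p = 0.0439), and it no longer passed with total-count scaling (0.04), with no low-count filter or without any of 5 single libraries.

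The same vector cells at 0 h of dox, read in both batches, give the size of batch differences. In AJ the libraries of the batches did not overlap for 5 of the 7 genes, with Bok lower by 0.67 and Bak1 lower by 0.45 on the log2 scale in batch 2, taken from group means. In βTC3 they did not overlap for 2, with Bcl2l2 higher by 0.47 and Mcl1 higher by 0.37. The share of all genes without overlap between the batches was not taken, so these counts do not place the 7 against other genes. Levels are therefore not compared across batches below.

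**Figure D2:**
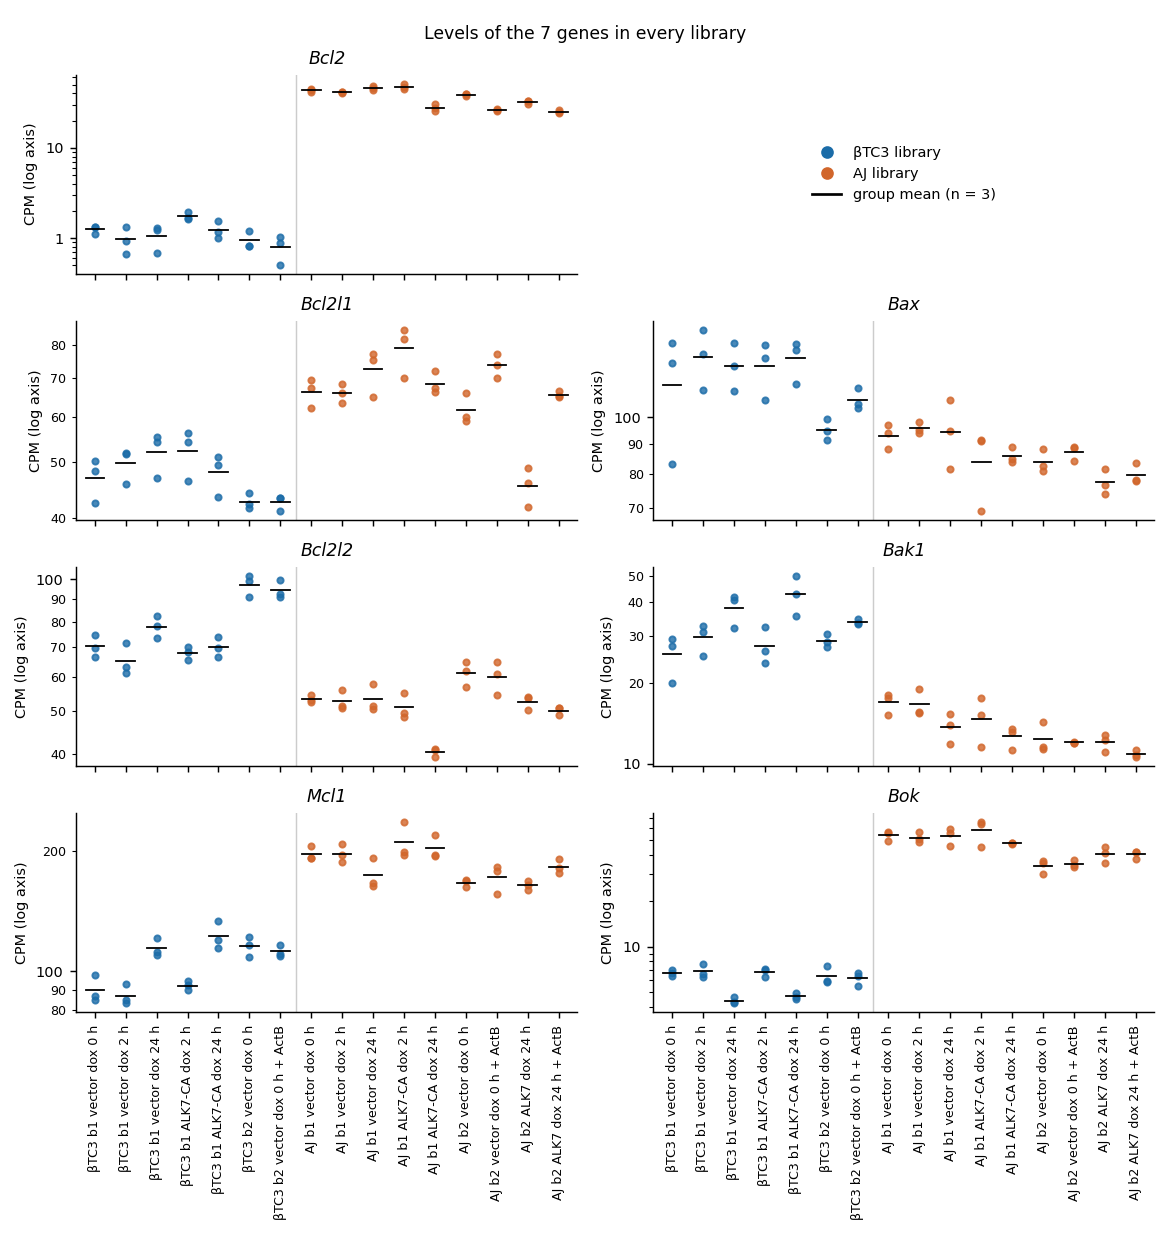
CPM (log axis, scaled on all 48 libraries) of each gene in every library of the 16 groups, βTC3 in blue and AJ in orange, with black bars at the mean of 3 libraries; b1 and b2 are the batches and ActB is activin B. Bcl2 in AJ drops in the groups with 24 h of ALK7-CA or with activin B, and Bcl2l1 is lowest of the 4 AJ groups of batch 2 in ALK7 cells without ligand.

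The effect of constitutively active ALK7 was read against vector cells with the same hours of dox. In AJ after 24 h, Bcl2 and Bcl2l2 fell and Mcl1 rose, 3 of 7 genes where 40.7% of all 15487 tested genes passed (20.8% up and 19.9% down). The libraries of vector and ALK7-CA did not overlap for those 3, as for 47.3% of all genes. Summed islet endocrine markers ran beside this from 6336 to 7423 CPM with ALK7-CA and from 9786 to 11470 with vector (6336 and 6353 in the ALK7-CA libraries other than replicate 1), and their part in the result was not tested. Bcl2 stood at 45.4, 44.0 and 48.5 CPM in vector cells and 25.4, 30.4 and 27.3 with ALK7-CA, with no overlap. The log2 change was -0.74 (SE 0.073, adjusted p = 2.58e-06), and -0.67 without replicate 1 of the ALK7-CA group, the library that holds βTC3 transcripts (adjusted p = 1.32e-05). Bcl2l2 went from 51.5, 50.6 and 57.7 CPM to 40.9, 39.3 and 41.1, again without overlap. Its log2 change was -0.41 (SE 0.060, adjusted p = 0.000107), and -0.41 without that library.

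Mcl1 read 163, 166 and 192 CPM in AJ vector cells and 193, 195 and 219 with ALK7-CA. The groups were apart by a narrow margin, since the third vector library nearly met the lowest ALK7-CA library. Its log2 change of 0.21 (SE 0.079, adjusted p = 0.0445) was lost without vector replicate 1 or 2 (0.18 and 0.19) or ALK7-CA replicate 2 or 3 (0.24 and 0.15), with total-count scaling (0.19), when the compared groups were fitted by themselves (0.23) and against vector cells at 0 h of dox (0.04). Without ALK7-CA replicate 1 it was 0.26 (adjusted p = 0.0383). With the replicate number as a block it passed (adjusted p = 0.00036). By the rule over many genes given below, the numbers were not read as pairing AJ libraries. For Mcl1 itself, the library numbered 3 was highest in 10 of 10 groups of batch 1 over both lines. As shares of the summed survival genes per kb, Bcl2 stood at 6.01 ± 0.103% with vector and 3.51 ± 0.353% with ALK7-CA, and Mcl1 at 60.7 ± 2.41% and 68.6 ± 1.81%. The sums themselves were 83.6 ± 4.35 and 86.3 ± 3.99 CPM per kb. In the ALK7-CA libraries other than replicate 1 the Bcl2 share was 3.29 and 3.92%, the Mcl1 share 67.2 and 70.6% and the sum 84.8 and 90.8 CPM per kb.

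Bcl2l1 and the 3 pore formers did not pass in AJ at 24 h. Bcl2l1 changed by -0.09 on the log2 scale (interval of 2 SE from -0.27 to 0.08), Bax by -0.15 (-0.37 to 0.08), Bak1 by -0.13 (-0.44 to 0.18) and Bok by -0.18 (-0.45 to 0.09). Without ALK7-CA replicate 1 the changes were -0.07, -0.16, -0.17 and -0.17 in that order, and none passed. The median log2 change of the 7 genes was -0.15, against -0.01 over all tested genes.

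After 2 h of ALK7-CA in AJ none of the 7 passed in edgeR, where 15.8% of all genes did. Of the 7, 2 had an unadjusted p under 0.05, as had 4253 of all 15487 tested genes. The libraries did not overlap for 3 of the 7, as for 32% of all genes. The 3 were Bax, Bcl2 and Bcl2l1. Bax read 95.0, 98.1 and 94.1 CPM in vector cells and 91.3, 91.6 and 69.2 with ALK7-CA, all lower (log2 -0.18, SE 0.111, adjusted p = 0.341). Bcl2 read 41.2, 40.1 and 41.4 CPM in vector cells and 46.4, 44.7 and 51.3 with ALK7-CA, all higher (log2 0.22, SE 0.072, adjusted p = 0.0546, and 0.0257 in DESeq2). Bcl2l1 read 66.1, 68.4 and 63.4 against 85.1, 82.0 and 70.2 CPM, also all higher (log2 0.27, SE 0.088, adjusted p = 0.0556, and 0.0318 in DESeq2). With the replicate number as a block Bcl2 and Bcl2l1 passed (adjusted p = 0.0311 and 0.00307). By the rule over many genes given below, the numbers were not read as pairing AJ libraries. For Bcl2l1 the library numbered 3 was lowest in 10 of 10 groups of batch 1 over both lines. For Bcl2 the library of that number was highest in both AJ groups compared here. The effect of ALK7-CA at 24 h was lower than that at 2 h by 0.96 on the log2 scale for Bcl2 (SE 0.103, adjusted p = 1.76e-05) and by 0.37 for Bcl2l2 (SE 0.085, adjusted p = 0.00696), where 21% of all genes passed this test of the difference (10.2% lower). Both passed in each of 12 fits with a single library left out, among them the fit without ALK7-CA replicate 1 (-0.89 and -0.37). Bcl2l1 differed by -0.36 (adjusted p = 0.057, and 0.044 in DESeq2).

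In βTC3 none of the 7 passed against vector at 24 h, where 13.5% of all 15801 tested genes did (DESeq2 also called none). Of the 7, 1 had an unadjusted p under 0.05, as had 3831 of all tested genes. With the replicate number as a block (the numbers pair libraries in βTC3), 3 passed with changes of the same small size. These were Bcl2l2 (log2 -0.15, adjusted p = 0.01 with the block and 0.204 without), Bcl2l1 (-0.12, 0.023 and 0.566) and Mcl1 (0.10, 0.0342 and 0.467). Bcl2l2 read 78.0, 73.5 and 82.4 CPM in vector cells and 69.8, 66.3 and 73.8 with ALK7-CA, lower in each numbered pair although the groups overlap. Bcl2 read 1.29, 0.684 and 1.22 CPM against 0.991, 1.17 and 1.55 with ALK7-CA, at counts too low to place a change closer than between -0.33 and 0.75. Read against vector cells at 0 h of dox, Mcl1 (log2 0.45), Bak1 (0.75) and Bok (-0.51) passed, and these are genes that moved with dox alone, as given below.

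At 2 h in βTC3 none of the 7 passed, where 1.53% of all genes did (DESeq2 also called none). An unadjusted p under 0.05 was found for 1 of the 7 and for 1698 of all 15801 genes. The 1 of the 7 was Bcl2, read at 0.937, 1.32 and 0.676 CPM in vector cells and 1.96, 1.62 and 1.68 with ALK7-CA. The ALK7-CA libraries were all higher, the 1 of 7 genes without overlap against 15.8% of all genes, with a log2 change of 0.85 (SE 0.265, adjusted p = 0.18, and 0.0818 with the replicate block). No late effect passed a test against the early one in edgeR or DESeq2 (5.85% of all genes passed in edgeR). At an unadjusted p under 0.05 were 0 of the 7 and 2527 of all 15801 genes. With the block, Bcl2l1 (-0.18, adjusted p = 0.0234) and Bcl2l2 (-0.21, adjusted p = 0.0197) did pass.

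Between the lines, the 24 h effect on Bcl2 differed by -0.95 on the log2 scale, AJ minus βTC3 (SE 0.270, adjusted p = 0.0324), the 1 of 7 that passed where 17.5% of all genes did (9.18% lower). It sets the fall in AJ (-0.74) against a change in βTC3 that was read at low counts and did not pass (0.21, SE 0.269). The difference no longer passed in 7 of 12 fits with a library left out, with values from -1.13 to -0.72 over the 12. It was -0.89 without ALK7-CA replicate 1 of AJ, where the call was lost (adjusted p = 0.0581). At 2 h none of the 7 passed in edgeR or DESeq2 (5.79% of all genes did in edgeR). At an unadjusted p under 0.05 were 1 of the 7 and 2717 of all 16247 genes. The 1 of the 7 was Bcl2 at -0.62 (adjusted p = 0.148), and it passed without replicate 2 of the βTC3 vector group (-0.90).

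**Figure D3:**
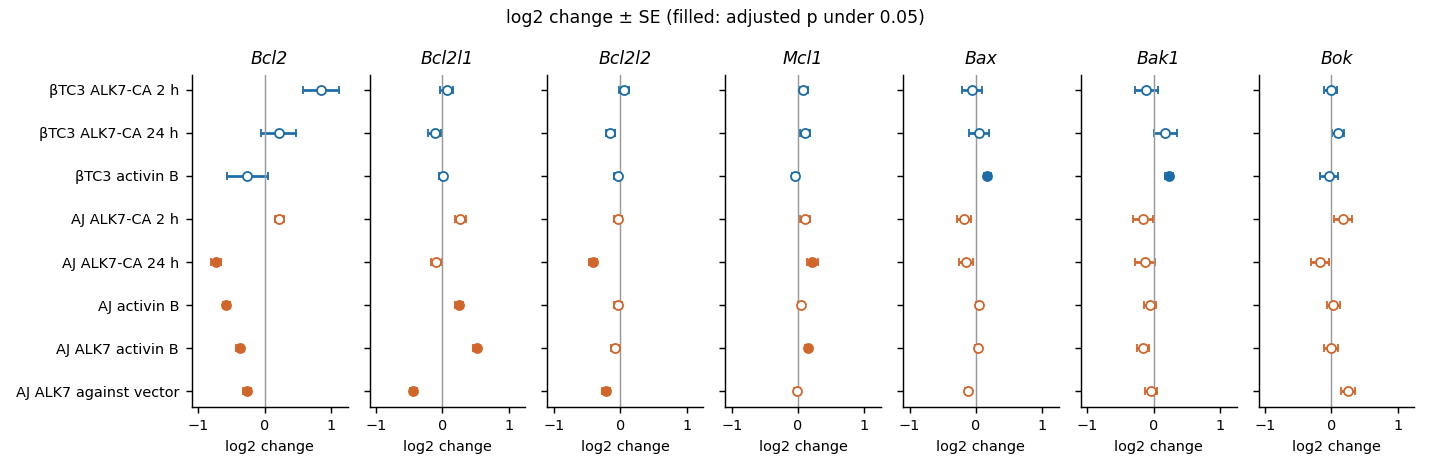
log2 change of each gene (x axis, bars are SE) in 8 comparisons, βTC3 in blue and AJ in orange, filled where the edgeR adjusted p was under 0.05. In AJ, Bcl2 lies left of 0 with ALK7-CA at 24 h (-0.74), with activin B in vector (-0.58) and ALK7 cells (-0.38) and in ALK7 cells against vector (-0.27), and Bcl2l1 lies right of 0 with activin B.

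Activin B, the ligand, was read against the same cells without it. In AJ vector cells Bcl2 fell and Bcl2l1 rose, 2 of 7 genes where 22.5% of all 14872 tested genes passed (11.6% up and 10.9% down) and 31.5% did not overlap between the groups. Summed islet endocrine markers ran from 11650 to 12770 CPM with activin B and from 9653 to 11050 without it, and their part was not tested. Bcl2 went from 39.7, 37.5 and 38.9 CPM to 26.4, 26.6 and 25.2, with every treated library below every untreated one (log2 -0.58, SE 0.056, adjusted p = 1.57e-05). Bcl2l1 went from 65.9, 59.0 and 60.0 CPM to 73.8, 77.4 and 70.2, with every treated library above (log2 0.25, SE 0.054, adjusted p = 0.0052). Both calls held without any single library. The other 5 genes changed by -0.05 to 0.05 on the log2 scale and did not pass.

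In AJ cells with the ALK7 plasmid Bcl2 fell with activin B, and Bcl2l1 and Mcl1 rose, 3 of 7 where 32.8% of all genes passed (16.5% up and 16.3% down) and 46.1% did not overlap. Summed islet endocrine markers ran from 7249 to 7929 CPM with activin B and from 6622 to 6864 without it, and their part was not tested. Bcl2 went from 33.3, 30.2 and 33.0 CPM to 24.6, 26.3 and 24.1, without overlap (log2 -0.38, SE 0.057, adjusted p = 0.000288). Bcl2l1 went from 45.9, 48.8 and 41.7 CPM to 66.5, 65.0 and 65.2, the largest log2 rise among the survival genes in the 3 activin B comparisons (log2 0.52, SE 0.054, adjusted p = 1.73e-05). Mcl1 went from 168, 164 and 159 CPM to 176, 190 and 181, also without overlap (log2 0.14, adjusted p = 0.0319), a call lost without replicate 2 or 3 of the untreated or replicate 2 of the treated group (0.14, 0.12 and 0.11). The effects of activin B with and without the ALK7 plasmid did not pass a test of their difference in any of the 7, where 2.56% of all genes did. Among all 14872 genes 1938 had an unadjusted p under 0.05, and among the 7 there were 2. These were Bcl2l1, at a difference of 0.27 (SE 0.076, adjusted p = 0.106), and Bcl2, at 0.20 (SE 0.080, adjusted p = 0.285). DESeq2 also called none.

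ALK7 cells after 24 h of dox, with no ligand, were lower than vector cells without dox in 3 survival genes, where 29% of all genes passed (14.6% lower) and 40.2% did not overlap. Summed islet endocrine markers ran from 6622 to 6864 CPM in these ALK7 cells and from 9653 to 11050 in vector cells, and their part was not tested. Bcl2l1 read 45.9, 48.8 and 41.7 CPM against 65.9, 59.0 and 60.0, without overlap (log2 -0.44, SE 0.055, adjusted p = 9.04e-05). Bcl2 (log2 -0.27, SE 0.056, adjusted p = 0.00374) and Bcl2l2 (-0.22, SE 0.056, adjusted p = 0.0126) were lower too. Bok (0.25, adjusted p = 0.0926), Bax (-0.12, adjusted p = 0.0981), Bak1 (-0.04) and Mcl1 (-0.02) did not pass. In batch 1 AJ vector cells, 24 h of dox alone changed Bcl2l1 by 0.13, Bcl2 by 0.08 and Bcl2l2 by 0.00 on the log2 scale, none of which passed. With activin B, Bcl2l1 stood at 65.6 ± 0.775 CPM in ALK7 cells and 73.8 ± 3.59 in vector cells, and Bcl2 at 25.0 ± 1.15 and 26.1 ± 0.749.

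In βTC3 vector cells Bax and Bak1 rose with activin B, 2 of 7 where 22.2% of all 14429 tested genes passed (12.3% up) and 38.2% did not overlap, and no survival gene passed. Summed islet endocrine markers ran from 31040 to 32190 CPM with activin B and from 34900 to 37000 without it, and their part was not tested. Bax went from 94.7, 91.6 and 99.5 CPM to 104, 106 and 112, without overlap (log2 0.18, SE 0.051, adjusted p = 0.0439). Bak1 went from 28.4, 27.3 and 30.5 CPM to 33.2, 34.6 and 33.4, without overlap (log2 0.24, SE 0.062, adjusted p = 0.0301). Both calls were lost with DESeq2 (adjusted p = 0.0568 and 0.0583) and in 5 of 6 fits with a library left out, with values of 0.14 to 0.21 and 0.20 to 0.28 over the 6. With the replicate number as a block both passed in edgeR (adjusted p = 0.00564 and 0.0229). Bcl2l1 changed by 0.00 (interval of 2 SE from -0.09 to 0.10), Bcl2l2 by -0.04, Mcl1 by -0.04, Bok by -0.04 and Bcl2 by -0.26 (-0.88 to 0.37). The effect of activin B on Bcl2l1 differed between the lines by 0.25 on the log2 scale (AJ minus βTC3, SE 0.069, adjusted p = 0.039), the 1 of 7 that passed where 9.12% of all genes did (4.61% higher). It was lost with no low-count filter (adjusted p = 0.0969) and in 8 of 12 fits with a library left out, with values of 0.23 to 0.29. Bcl2 did not pass this test (-0.31, adjusted p = 0.597).

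Dox alone was read in vector cells of each line. In βTC3, after 24 h of dox Mcl1 and Bak1 rose and Bok fell, 3 of 7 where 23.3% of all genes passed (10.6% up and 12.7% down) and 35.5% did not overlap. Mcl1 went from 86.6, 84.5 and 97.8 CPM to 112, 110 and 121, without overlap (log2 0.35, SE 0.073, adjusted p = 0.00402). Bok went from 6.99, 6.75 and 6.41 CPM to 4.64, 4.36 and 4.24, without overlap (log2 -0.61, SE 0.095, adjusted p = 0.00061). Bak1 went from 27.4, 29.3 and 20.0 CPM to 40.6, 41.7 and 31.9 (log2 0.57, SE 0.174, adjusted p = 0.0301). The Bak1 groups were apart by a small gap, and its call was lost when the compared groups were fitted by themselves (adjusted p = 0.065) and in 4 of 6 fits with a library left out (0.45 to 0.70 over the 6). With the replicate block all 3 passed, Bak1 at an adjusted p of 6.65e-05, and Bcl2l1 (0.15) and Bcl2l2 (0.15) passed as well.

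After 2 h of dox none of the 7 passed in βTC3 or in AJ, where 0.00633% and 0% of all genes did (DESeq2 called none of the 7). None of the 7 had an unadjusted p under 0.05, against 471 of 15801 genes in βTC3 and 381 of 15487 in AJ. In AJ at 24 h none passed (2.71% of all genes did) and none was called by DESeq2. At an unadjusted p under 0.05 were 1 of the 7 and 2609 of all 15487 genes. There Mcl1 changed by -0.18 (SE 0.0790, adjusted p = 0.281) and Bok by -0.01. With the replicate block Mcl1 (-0.18, adjusted p = 0.0121) and Bak1 (-0.31, adjusted p = 0.0375) passed. By the rule over many genes given below, the numbers were not read as pairing AJ libraries. The library numbered 3 was highest for Mcl1 and lowest for Bak1 in 10 of 10 groups of batch 1 over both lines. The ALK7-CA libraries of βTC3 ran with the vector libraries of the same hour, Bok at 4.96, 4.66 and 4.53 CPM and Mcl1 at 119, 114 and 133 CPM at 24 h. Whether the change with dox depends on the line was not tested.

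**Figure D4:**
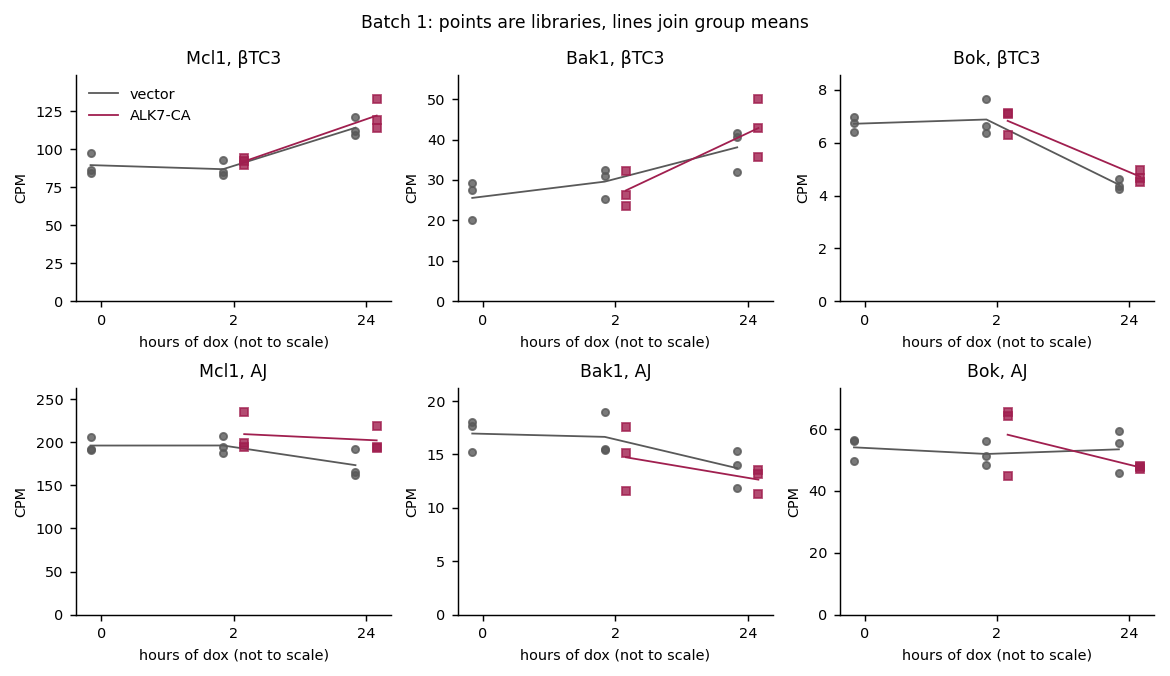
CPM of Mcl1, Bak1 and Bok in batch 1 against hours of dox (0, 2 and 24, spaced evenly), βTC3 above and AJ below, with a point per library and lines through the means of vector (grey) and ALK7-CA (red) groups. In βTC3 the 24 h libraries of both plasmids lie above the 0 h libraries for Mcl1 and Bak1 and below them for Bok, and the plasmids overlap.

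The deviations by library number in batch 1 were as large as several of the effects above. Relative to its group mean, the library numbered 3 lay at a median of -0.22 for Bak1, -0.17 for Bax and -0.14 for Bcl2l1, and at 0.11 for Mcl1 and 0.08 for Bcl2l2, on the log2 scale over 10 groups. Bax was lowest there in 9 and Bok in 8 of 10 groups. Bcl2 showed no such order over both lines, with the library numbered 3 highest in 5 and lowest in 2. In AJ alone that library was highest for Bcl2 in every group other than ALK7-CA at 24 h. In batch 2 the library numbered 3 did not repeat this (Mcl1 highest in 0 of 6 groups and Bak1 lowest in 2 of 6). Another order by number was seen there for Bcl2l2 and Bok. In the library numbered 3, Bcl2l2 was lowest and Bok highest in 5 of 6 groups. In the library numbered 2, Bcl2l2 was highest and Bok lowest in 5 of 6. What the number stands for is not given in the labels, and its part in the results was not tested beyond the fits with the block.

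**Figure D5:**
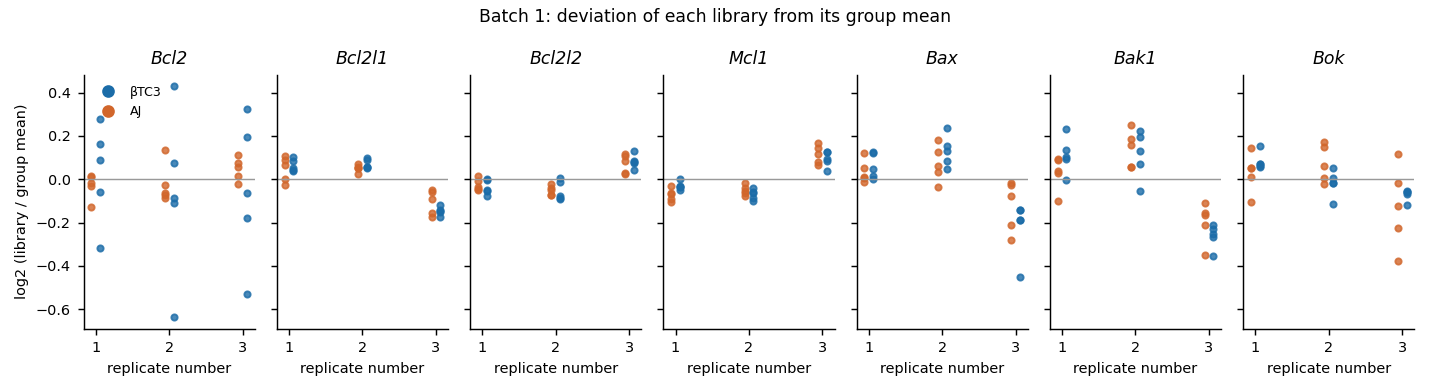
Deviation of each batch 1 library from its group mean (y axis, log2) by replicate number (x axis) for the 7 genes, βTC3 in blue and AJ in orange, 10 groups each. Library 3 lies below 0 in every group for Bcl2l1 and Bak1 and above 0 in every group for Mcl1 and Bcl2l2.

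Over the 16 group means, each centred within its line and batch, Mcl1 and Bok moved most against each other among the 7 (Pearson r = -0.73), Bak1 and Bok likewise (-0.68), and Mcl1 and Bak1 together (0.67). Bcl2 followed Bcl2l2 at 0.51 and Bcl2l1 at -0.08. Among 11308 genes, the closest to Mcl1 was Apaf1, which encodes the scaffold of the apoptosome (r = 0.98), followed by Bptf (0.96). Bok was closest to the homeobox gene Mnx1 (0.97) and Lonrf1 (0.94), and Bcl2l2 to Tspan5 (0.96) and Irf2 (0.95). Bak1 was closest to Smg5 (0.94) and Mob1b (0.94). Bcl2 was closest to Dscam (0.89) and Tsc2 (0.84), Bcl2l1 to Id2, an inhibitor of DNA binding (0.90), and Ocel1 (0.86), and Bax to Reep6 (0.87) and Bmp1 (0.86). All points share libraries and scaling, so these values describe likeness only.

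The other genes of the pathway were counted from 6 lists of 41 genes. Of 8 BH3-only genes, 3 rose and 1 fell with ALK7-CA at 24 h in βTC3, and 3 rose and 2 fell in AJ, with or without ALK7-CA replicate 1. Of all tested genes, 13.5% passed in that comparison in βTC3 and 40.7% in AJ, so the counts of these lists are read against those shares. Bmf, whose product binds the survival proteins, stood at 72.6 ± 1.59 CPM in AJ ALK7-CA cells at 24 h and 3.80 ± 0.0890 in vector cells, a 19.0-fold rise (adjusted p = 2.68e-12, and 19.2-fold without ALK7-CA replicate 1). With activin B it rose 9.72-fold in βTC3, 4.30-fold in AJ vector cells and 6.53-fold in AJ ALK7 cells (adjusted p = 1.86e-06, 3.88e-07 and 1.53e-08). Bcl2l11 rose 1.37-fold in AJ and 1.24-fold in βTC3 with ALK7-CA at 24 h (adjusted p = 1.52e-05 and 0.000833). Pmaip1 fell 3.58-fold in βTC3 with ALK7-CA at 24 h, from 2.52 ± 0.689 CPM in vector cells to 0.698 ± 0.268 (adjusted p = 0.00014). In AJ, Hrk rose 2.14-fold at 24 h (adjusted p = 6.26e-06), and Hrk and Bcl2l11 passed without that library too. In AJ vector cells Bid, whose cleaved product activates BAX and BAK, fell 1.34-fold with activin B (adjusted p = 0.000109).

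Of 7 genes for turnover of the MCL1 protein, 1 rose and 2 fell with ALK7-CA at 24 h in AJ (40.7% of all genes passed) and 1 rose and 1 fell in βTC3 (13.5%). Without ALK7-CA replicate 1 of AJ, 1 rose and 1 fell, since the call of Btrc was lost (log2 -0.17, adjusted p = 0.0513), and Fbxw7 (2.37-fold) and Trim17 (4.69-fold) passed. Fbxw7, the substrate adaptor of a ubiquitin ligase that takes MCL1, rose 2.32-fold in AJ, from 29.4 ± 2.38 to 68.6 ± 1.70 CPM (adjusted p = 1.06e-08), and 1.21-fold in βTC3 (adjusted p = 0.0277). Trim17, also a ubiquitin ligase, fell 4.38-fold in AJ and 3.85-fold in βTC3 from vector levels of 1.248 and 3.72 CPM (adjusted p = 5.1e-05 and 6.19e-07). With activin B 1 of 7 rose and none fell in either kind of AJ cell, and none of 6 tested passed in βTC3, where 22.5% (vector), 32.8% (ALK7) and 22.2% of all genes passed.

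Of 8 apoptosome and caspase genes, 2 rose and 2 fell with ALK7-CA at 24 h in AJ (40.7% of all genes passed), with or without ALK7-CA replicate 1, none passed with it in βTC3 (13.5%), and 4 fell with activin B in AJ ALK7 cells, where 16.3% of all genes fell. Of the 3 Vdac channels of the outer membrane, Vdac1 rose in AJ with ALK7-CA at 24 h by 1.20-fold (adjusted p = 6.61e-05, and 0.000267 without ALK7-CA replicate 1), with activin B in vector cells by 1.19-fold (adjusted p = 0.000673) and with it in ALK7 cells by 1.08-fold (adjusted p = 0.0467), and none passed in βTC3 in these comparisons. Of 7 inhibitors of apoptosis and their antagonists, Birc5, which encodes survivin, a mitotic protein, fell in AJ with ALK7-CA at 24 h (1.26-fold, and 1.27-fold without ALK7-CA replicate 1), with activin B (1.18-fold) and in ALK7 cells with activin B (1.33-fold), with adjusted p of 2.97e-05, 0.000364 and 3.29e-06, and rose 1.11-fold with ALK7-CA at 2 h (adjusted p = 0.0258). None of that list passed in βTC3 with ALK7-CA at 24 h or activin B, where the medians of the list were -0.02 and -0.03 on the log2 scale. Of the 8 other BCL2-family genes, 3 or 4 were tested in these comparisons. With ALK7-CA or activin B the single call was Bcl2l13, up 1.123-fold in AJ with ALK7-CA at 24 h (adjusted p = 0.0254), which was lost without ALK7-CA replicate 1 (adjusted p = 0.052). Bcl2l15 was 1.96-fold lower in ALK7 cells than in vector cells (adjusted p = 0.00756), where 14.6% of all genes were lower.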

How the data were processed

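PolyA RNA was sequenced from 48 libraries of βTC3 and AJ5257-1 cells, and per the labels' protocols the input was 500 ng of RNA and the kit strand-specific. The submitters' processing notes name, for the authors, mm10, HISAT2, edgeR, bcl2fastq (2.17), featureCounts (1.4.4) and cutadapt (1.4.2). For their settings, annotation and order, nothing was given in the sources used here. Raw read counts per Ensembl gene make up the deposited tables, and the deposited series table was equal to them in 48 of 48 columns. A deposited table of normalized values was not used here. Symbols and exon lengths came from GENCODE M21 (GRCm38), which named 37693 of 39017 identifiers. No libraries held identical values.

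Fits used R 4.3.3 and edgeR 4.0.16 (filterByExpr with minimum count 10, total 15 and proportion 0.7, TMM, quasi-likelihood F test), with Benjamini-Hochberg adjustment over all tested genes at 0.05, in 9 fits giving 20 comparisons. Each line's libraries of a batch shared a fit, and line comparisons used the groups compared. The SE is the log2 change over the square root of F. Fits were tried on simulated counts with known changes, drawn without any deviation by replicate number, so that deviation was not covered. CPM were scaled with TMM over all 48 libraries, and log2 ratios of their means differed from fitted changes by at most 0.055. Intervals are 2 SE either side. Alternatives were DESeq2 1.42.0, RLE and total-count scaling, no filter, a stricter filter (1 CPM in 3 libraries and a mean log2 CPM over 1), a fit of the compared groups alone, vector cells at 0 h of dox as control, the replicate number as a block, and leaving out each library.

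Replicate numbers counted as pairing a line where, over 8842 genes with a mean log2 CPM over 4, residuals of same-numbered libraries correlated above 0.1 in every pair of groups. In βTC3 this held for all 10 group pairs of batch 1 (lowest r 0.15, highest 0.81) and in the 1 pair of βTC3 batch 2 (0.11 to 0.42), and in 5 of 10 and 1 of 6 in AJ, so βTC3 was read as paired and AJ not. Over 13340 genes with a mean over 0 it held in 8 of 10 and 0 of 1 in βTC3. Between the lines in batch 1, over the 8842 genes, same-numbered libraries correlated above 0.1 in 22 of 25 group pairs (r from 0.036 to 0.837). AJ fits without the block therefore leave in any deviation that follows the number. Bcl2l1, Bak1, Mcl1 and Bcl2l2 showed such a deviation in the library numbered 3 of every AJ group of batch 1.

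The 7 genes and the other lists were chosen with earlier results of these data known. All 7 were tested in every comparison, and those that passed are named. Changes of members that did not pass are given in some comparisons only. Of each other list up to 3 called genes per receptor or ligand comparison were eligible for naming, by smallest adjusted p. Some of these genes are not reported here. Likeness was taken among genes with a mean log2 CPM over 1. The rule for βTC3 transcripts in AJ (at least 50 CPM in βTC3 and at most 0.1 in AJ vector libraries) took 2 genes, at a median of 5.95% in that library, so a wider limit of 0.2% of the βTC3 level, chosen after seeing the data, was added, as was total-count scaling.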

Additional observations from a re-analysis of the deposited data

Results flagged for a closer look

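Each of these 4 differences between effects passed its own test in edgeR. The effect of ALK7-CA at 24 h on Bcl2 was lower in AJ than in βTC3 (log2 difference -0.947, adjusted p = 0.0324), with raw counts of 11 to 60 per library over all βTC3 groups. The effect of activin B on Bcl2l1 was higher in AJ than in βTC3 (difference 0.254, adjusted p = 0.039). In AJ the effect of ALK7-CA was lower at 24 h than at 2 h for Bcl2 (difference -0.96, adjusted p = 1.76e-05) and for Bcl2l2 (difference -0.368, adjusted p = 0.00696). The part of the replicate number and of the library with βTC3 transcripts in these differences was read only through the fits with a block and with libraries left out.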

How the results depend on the processing

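The number of the 7 genes that passed kept within 1.5 times in the comparisons and settings not named here. With the replicate block it was 3 against 0 for βTC3 ALK7-CA at 24 h, 5 against 3 for βTC3 dox at 24 h, 2 against 0 for βTC3 late against early, 2 against 0 for AJ ALK7-CA at 2 h, 5 against 3 for AJ ALK7 against vector, 2 against 0 for AJ dox at 24 h and 3 against 1 for ALK7-CA at 24 h between lines. By the rule over many genes, the numbers are read as pairing libraries in βTC3 only. With vector at 0 h of dox as control it was 3 against 0 for βTC3 ALK7-CA at 24 h, and Bok turned from 0.10 to -0.51. With DESeq2 it was 2 against 0 for AJ ALK7-CA at 2 h and 0 against 2 for βTC3 activin B, where total-count scaling left 1. With no filter it was 0 against 1 for activin B between lines. With a library left out it ran from 0 to 2 for AJ ALK7-CA at 2 h, from 0 to 2 for βTC3 activin B, from 0 to 1 for each of activin B, ALK7-CA at 2 h and ALK7-CA at 24 h between lines and from 2 to 4 for AJ late against early. The cause was not tested.

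Counts over all genes moved by over 1.5 times with the block, to 4410 from 2134 (βTC3 ALK7-CA at 24 h), 1136 from 241 (2 h), 2553 from 924 (late against early), 7165 from 3674 (dox at 24 h), 3895 from 2443 (AJ ALK7-CA at 2 h), 4954 from 3246 (AJ late against early), 1603 from 419 (AJ dox at 24 h), 4753 from 2835 and 1885 from 941 (ALK7-CA between lines at 24 and 2 h), 2134 from 1408 (activin B between lines) and 623 from 381 (with and without ALK7). In fits of the groups alone they were 31 for βTC3 ALK7-CA at 2 h, 2135 for βTC3 dox and 20 for AJ dox at 24 h. For βTC3 ALK7-CA at 2 h and AJ dox at 24 h they were 375 and 843 with DESeq2 and 150 and 210 with no filter, ran from 77 to 208 and from 116 to 678 with a library left out, and for βTC3 dox at 2 h DESeq2 gave 4 against 1. A library left out took activin B with and without ALK7 to 240 without ALK7 replicate 2, 244 without ALK7 activin B replicate 1 and 239 without vector activin B replicate 2, from 381, dox at 2 h to 3 from 1 in βTC3 (without 0 h replicate 1 or 2 h replicate 3) and to 1 from 0 in AJ (without 0 h replicate 2). With vector at 0 h as control the count was 5155 for βTC3 ALK7-CA at 24 h. Total-count scaling moved the share of higher calls for AJ ALK7-CA at 2 h from 52.2% to 40.0%. Over the 7 genes, RLE scaling changed none of 140 calls and DESeq2 5, and the stricter filter, which dropped Bcl2 in βTC3, none of 134. Counts of 11 to 60 limit Bcl2 in βTC3.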
